A study of Mus musculus with 16 samples.

Results

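Keratin genes of the kidney tubule and of related epithelia (Krt7, Krt8, Krt18, Krt19, Krt20, Krt23, Krt80, Krt5, Krt14 and Krt15) were followed as a named list of 10 among the 55536 genes of a count table from a mouse collecting duct cell line. All 10 were found by their Ensembl identifiers. The 16 libraries form 4 groups of 4: cells at passage 4 or passage 7, each without or with doxycycline (DOX), the drug that switches on loss of Pkd2 in these cells. The line is an inner medullary collecting duct line made from an inducible Pkd2 knockout mouse, and polycystin-2, the product of Pkd2, is a cation channel found in cilia and in the endoplasmic reticulum. Every culture grew for 10 days on permeable filters in the same medium with 5% serum, and the DOX groups received 2 ug/mL for 6 days. The sample titles call the cells of all 4 groups Pkd2 knockout cells, whereas the genotype label reads wild type without DOX and Pkd2KO induced by DOX with it. No group received DOX while keeping Pkd2, so an effect of the drug and an effect of losing Pkd2 cannot be told apart. The labels do not name the promoter or cell type that drives the inducible system, nor say whether the line is 1 clone or whether replicates came from separate cultures. P-values then measure the spread between these libraries, which may be technical.

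Keratins are the intermediate filament proteins of epithelial cells. An acidic type I keratin and a basic type II keratin pair to form each filament, so a cell needs both types. In simple epithelia such as the renal collecting duct, Krt8 (type II) and Krt18 (type I) are the core pair, joined by Krt7 (type II) and Krt19 (type I). Krt20 (type I) is best known from intestinal epithelium and the surface cells of the urothelium, while Krt5 (type II) with Krt14 or Krt15 (type I) marks the basal cells of layered epithelia.

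Total counts were 9937504 to 17188295 per library. Levels are given as CPM, counts scaled to library size and by TMM, a factor for library composition. Pkd2 fell from 140.1 ± 4.24 to 52.7 ± 3.98 CPM at passage 4 and from 185.5 ± 1.40 to 56.7 ± 8.07 CPM at passage 7 (SD, n = 4), with an exact 2-sided permutation p of 0.0286 at each passage, the smallest that 4 against 4 allows. Of 12 listed principal cell markers, 7 were tested. Scnn1a (88.0 to 226 CPM) and the kidney cadherin Cdh16 (163 to 357 CPM) were present in every library, while Aqp2, the vasopressin-regulated water channel that defines principal cells, had no count in any library and Aqp3 and Aqp4 stayed under 1 CPM. With DOX averaged over passages, 1 of the 7 was higher and 4 lower, beside 15.7% and 16.6% of all tested genes. With the replicate number as a block, 2 were higher and 4 lower, beside 3098 and 3318 of all 15316 tested genes. At passage 4, 2 were higher and 0 lower, beside 8.45% and 9.1%. The block gave 3 and 2 there, beside 2031 and 2145 genes. At passage 7, 1 was higher and 2 lower in both fits, beside 11.1% and 11.6%, or 2339 and 2522 genes with the block. By edgeR's test, Cdh16 changed by 0.17 at passage 4 (adjusted p = 0.0589, or 0.0227 with the block). At passage 7 it changed by -0.43 (adjusted p = 3.36e-05), a difference of -0.60 (adjusted p = 0.00112). The mesenchymal filament gene Vim was at most 0.370 CPM.

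Upstream sequence is shown for the 4 listed members that changed with DOX, Krt8 and Krt18, which fell, and Krt7 and Krt20, which rose. Each run gives the 250 bases before the start site in the RefSeq annotation of GRCm38.p6, 5′ to 3′ on the gene's strand: Krt7 at chr15:101412153-101412402 on the plus strand, Krt8 at chr15:102004343-102004592 on the minus strand, Krt18 at chr15:102027966-102028215 on the plus strand and Krt20 at chr11:99438154-99438403 on the minus strand. Capitals mark a TATA box (TATAAA) or a GC box (GGGCGG), on either strand.
Krt7: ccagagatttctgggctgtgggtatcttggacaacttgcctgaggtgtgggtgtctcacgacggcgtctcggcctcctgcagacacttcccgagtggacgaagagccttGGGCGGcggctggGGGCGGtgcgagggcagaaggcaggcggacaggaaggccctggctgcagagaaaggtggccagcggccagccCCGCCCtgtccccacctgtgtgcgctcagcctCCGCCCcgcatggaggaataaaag
Krt20: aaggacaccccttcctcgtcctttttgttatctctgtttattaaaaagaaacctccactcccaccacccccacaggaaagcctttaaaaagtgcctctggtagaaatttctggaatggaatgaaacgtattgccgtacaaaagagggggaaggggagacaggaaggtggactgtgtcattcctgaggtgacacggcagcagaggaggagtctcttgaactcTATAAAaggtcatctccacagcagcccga
Krt8: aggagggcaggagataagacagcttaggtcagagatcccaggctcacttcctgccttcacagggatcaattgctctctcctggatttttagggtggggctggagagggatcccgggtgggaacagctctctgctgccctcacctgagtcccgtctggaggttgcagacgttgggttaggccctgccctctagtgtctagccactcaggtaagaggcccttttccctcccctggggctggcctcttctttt
Krt18: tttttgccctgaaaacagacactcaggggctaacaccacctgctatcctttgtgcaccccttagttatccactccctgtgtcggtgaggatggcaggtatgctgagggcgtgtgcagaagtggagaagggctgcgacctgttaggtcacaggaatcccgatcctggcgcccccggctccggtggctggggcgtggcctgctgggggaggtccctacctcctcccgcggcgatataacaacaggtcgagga
Krt7 held 4 GC boxes, with first bases at -141, -128, -56 and -24 from the start site, and Krt20 held 1 TATA box at -29. Neither motif was found in the Krt8 and Krt18 windows. Both strands were searched, also for an AP-1 site (TGANTCA) and a Grainyhead site (AACCNGTT), and neither of these occurred in any of the 4 windows. Of 32817 such windows over all genes, 32.7% held GGGCGG, 12.4% TATAAA, 6.75% TGANTCA and 1.78% AACCNGTT. The windows follow the RefSeq starts: that of Krt7 lies wholly downstream of its Ensembl start, at 101411043, and the Krt8 and Krt18 windows run past theirs, at 102004482 and 102028180.

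Per base of exon, Krt18 and Krt8 were the most abundant members, Krt19 came next, and Krt20 and Krt7 followed. On the RPKM scale (CPM per kilobase of all exon bases), medians over the 16 libraries were 947 for Krt18, 939 for Krt8, 467 for Krt19, 256 for Krt20 and 226 for Krt7. Krt80 had a median of 4.49 and Krt23 of 0.382 RPKM. The order depended on the group. Krt8 was above Krt18 in all 4 libraries of passage 4 without DOX, in 1 of 4 of passage 7 without DOX and in 0 of 8 with DOX. Krt20 was above Krt7 in 14 of 16 libraries, the exceptions being 2 of the 4 of passage 7 without DOX. Krt19 was above Krt20 in the 12 libraries of the other groups and below it in all 4 of passage 4 with DOX. In the deposited TPM values, which use a shorter length for Krt7, Krt20 and Krt7 stood the other way round, with a median of 1013 for Krt7 and 668 for Krt20.

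Among the 7 members that passed the expression filter, DOX lowered Krt8 and Krt18 and raised Krt7 and Krt20. It left no call for Krt19, Krt80 and Krt23 in the fit without a block. This split was the same at both passages. With the replicate number as a block, Krt80 was also called higher at passage 4 and for the mean of both passages. A gene was called where edgeR's quasi-likelihood test gave a Benjamini-Hochberg adjusted p under 0.05 over all 15316 tested genes. At passage 4, 2 members were higher and 2 lower, against 8.45% of all tested genes higher and 9.1% lower. At passage 7 the members again gave 2 and 2, against 11.1% and 11.6% of all tested genes. For the mean of both passages the counts were also 2 and 2, against 15.7% and 16.6%. The median absolute log2 fold change of the 7 members was 0.41 at passage 4 and 0.28 at passage 7, and that of all tested genes was 0.15 and 0.16. The loss of a cell type that holds a keratin and a fall of its RNA per cell cannot be told apart in such bulk samples.

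**Figure D1:**
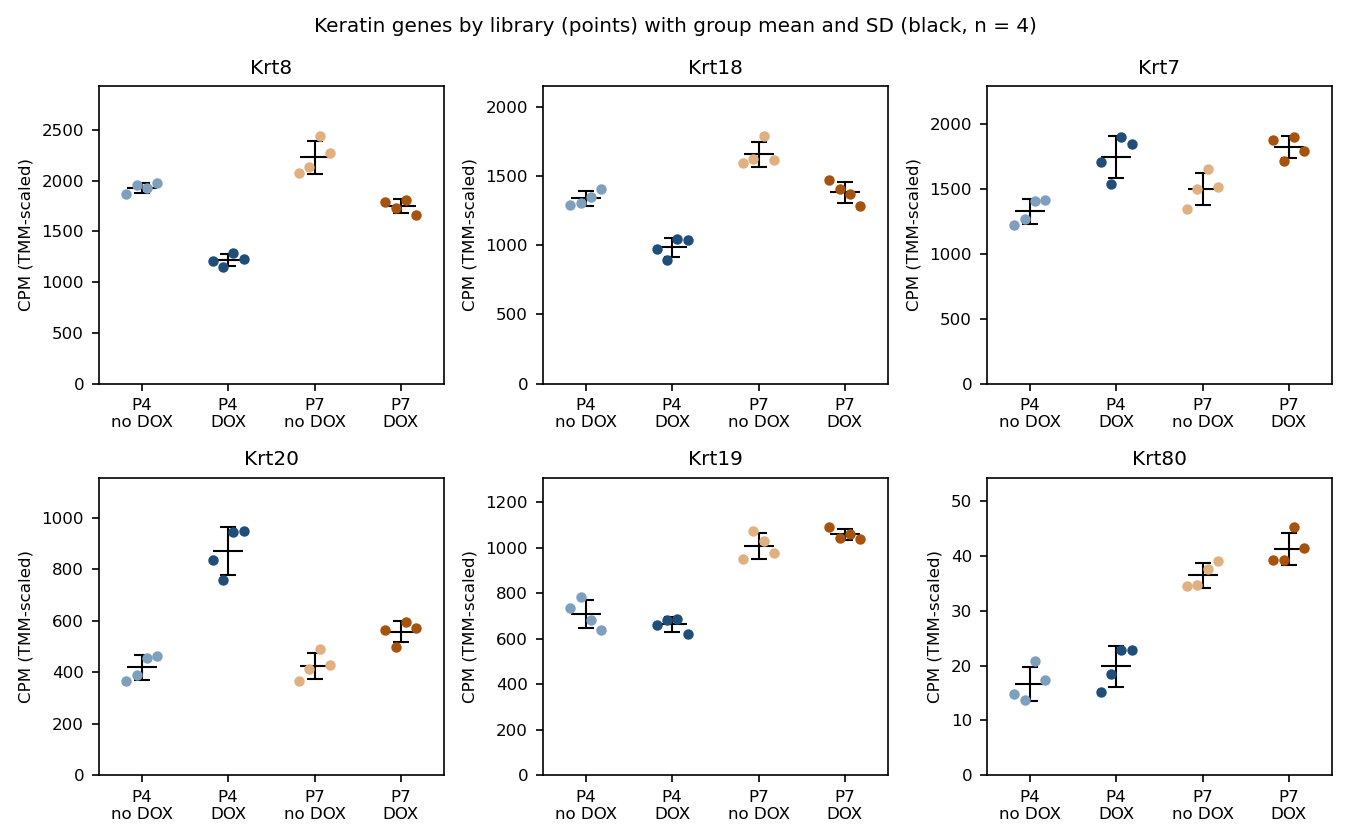
Level of 6 keratin genes in each library, in TMM-scaled CPM on the vertical axis, by group on the horizontal axis (P4, passage 4 and P7, passage 7); coloured points are libraries in replicate order and black bars show the mean and SD of 4. At both passages all DOX libraries lie below those without DOX for Krt8 and Krt18 and above them for Krt7 and Krt20, and Krt19 and Krt80 are higher at passage 7 with or without DOX.

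Krt8, the type II partner of the core pair, measured 1865, 1954, 1927 and 1973 CPM without DOX at passage 4 and 1212, 1145, 1291 and 1227 CPM with DOX. At passage 7 it measured 2079, 2137, 2445 and 2270 CPM without DOX and 1794, 1729, 1810 and 1665 CPM with DOX. Every DOX library was below every library without DOX of the same passage, and the passage 7 DOX libraries were also below all 4 of passage 4 without DOX. Krt8 fell by 0.66 on the log2 scale at passage 4 (SE 0.05, adjusted p = 9.53e-08), to 63.2% of its level without DOX. At passage 7 it fell by 0.35 (SE 0.05, adjusted p = 0.000107), to 78.4%.

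Krt18, the type I partner, moved with it but less. It measured 1291, 1307, 1351 and 1410 CPM without DOX at passage 4 and 971, 895, 1043 and 1038 CPM with DOX. At passage 7 the libraries without DOX had 1600, 1627, 1795 and 1618 CPM and those with DOX 1472, 1409, 1370 and 1288 CPM. The groups did not overlap at either passage, and replicate 3 without DOX at passage 7 stood above the other 3 of its group. Krt18 fell by 0.44 at passage 4 (SE 0.06, adjusted p = 3.01e-05) and by 0.26 at passage 7 (SE 0.06, adjusted p = 0.00308).

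Krt7, the second type II keratin of collecting duct and other duct epithelia, rose. It measured 1226, 1266, 1408 and 1413 CPM without DOX at passage 4 and 1708, 1536, 1905 and 1845 CPM with DOX. At passage 7 it measured 1348, 1503, 1651 and 1513 CPM without and 1881, 1718, 1899 and 1794 CPM with DOX. The groups did not overlap at either passage, and both DOX groups spanned about the same levels. The log2 fold change was 0.40 at passage 4 (SE 0.07, adjusted p = 0.000703) and 0.28 at passage 7 (SE 0.07, adjusted p = 0.00901).

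Krt20 had the largest DOX change among the 7 tested members at passage 4. Without DOX it measured 364, 389, 455 and 463 CPM at passage 4 and 366, 410.0, 489 and 426 CPM at passage 7, so the groups without DOX overlapped almost fully. With DOX it measured 833, 758, 946 and 946 CPM at passage 4 and 563, 498, 595 and 570.4 CPM at passage 7. All DOX libraries were above those without DOX, and all passage 4 DOX libraries were above those of passage 7. The rise was 2.08-fold at passage 4 (log2 1.06, SE 0.10, adjusted p = 5.12e-07) and 1.32-fold at passage 7 (log2 0.40, SE 0.10, adjusted p = 0.0059).

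Krt19, a type I keratin with a very short tail that pairs with Krt7 or Krt8, showed no DOX call. It measured 735, 782, 681 and 637 CPM without DOX and 661, 684, 687 and 619 CPM with DOX at passage 4. At passage 7 it measured 949, 1075, 1029 and 976 CPM without and 1091, 1045, 1059 and 1040 CPM with DOX. The DOX groups overlapped those without DOX at both passages. Log2 fold changes were -0.10 (SE 0.06, adjusted p = 0.313) and 0.07 (SE 0.06, adjusted p = 0.451).

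Krt80, a type II keratin found in many epithelia at low level, measured 14.8, 13.8, 20.8 and 17.3 CPM without DOX and 15.1, 18.5, 22.8 and 22.9 CPM with DOX at passage 4. At passage 7 the values were 34.5, 34.6, 37.7 and 39.0 CPM without and 39.2, 39.3, 45.3 and 41.4 CPM with DOX. The groups overlapped at passage 4 and not at passage 7, where the gap was narrow. The mean log2 fold change with DOX was 0.21 (SE 0.09, adjusted p = 0.0762), and with the replicate number as a block it was 0.21 with an adjusted p of 0.00581. The value for passage 4 was 0.25 in both fits, with an adjusted p of 0.227 without and 0.041 with the block. Without replicate 3 of passage 4 without DOX, or without replicate 1 of passage 4 with DOX, the mean change was also called (0.28 at the most, smallest adjusted p = 0.017).

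Libraries of replicates 1 and 2 stood apart from those of replicates 3 and 4 over all genes, in every group. The DOX changes were therefore also measured within each pair. At passage 4 Krt8 changed by -0.69 in replicates 1 and 2 and by -0.63 in replicates 3 and 4, Krt18 by -0.48 and -0.41, Krt7 by 0.38 and 0.41 and Krt20 by 1.08 and 1.04. At passage 7 the same genes changed by -0.26 and -0.45, by -0.16 and -0.37, by 0.34 and 0.22 and by 0.45 and 0.34. All 16 of these values passed the test within their pair, with a largest adjusted p of 0.0492, for Krt18 in replicates 1 and 2 at passage 7. These genes were picked by their calls over all libraries, so calls within parts of the same libraries are not a separate check.

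The response of Krt20 was smaller at passage 7 than at passage 4. The difference of the log2 fold changes was -0.66 (SE 0.14, adjusted p = 0.0207 by edgeR's test of the interaction), and it was -0.63 in replicates 1 and 2 and -0.70 in replicates 3 and 4. Of the 7 members, 1 was called lower, Krt20, and 0 higher, against 0.679% of all tested genes lower and 0.516% higher. With the replicate number as a block, 2 members were called, and the count over all genes rose from 183 to 715. The added member was Krt8, whose fall was larger at passage 4: the difference was 0.31 (SE 0.08), with an adjusted p of 0.0575 without and 0.00715 with the block. Krt8 was also called without replicate 3 of passage 4 with DOX, or without replicate 3 of passage 7 without DOX. The difference for Krt8 was 0.44 in replicates 1 and 2 and 0.19 in replicates 3 and 4. For Krt18 it was 0.18 (SE 0.08, adjusted p = 0.414) and for Krt7 -0.12 (SE 0.10, adjusted p = 0.738).

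**Figure D2:**
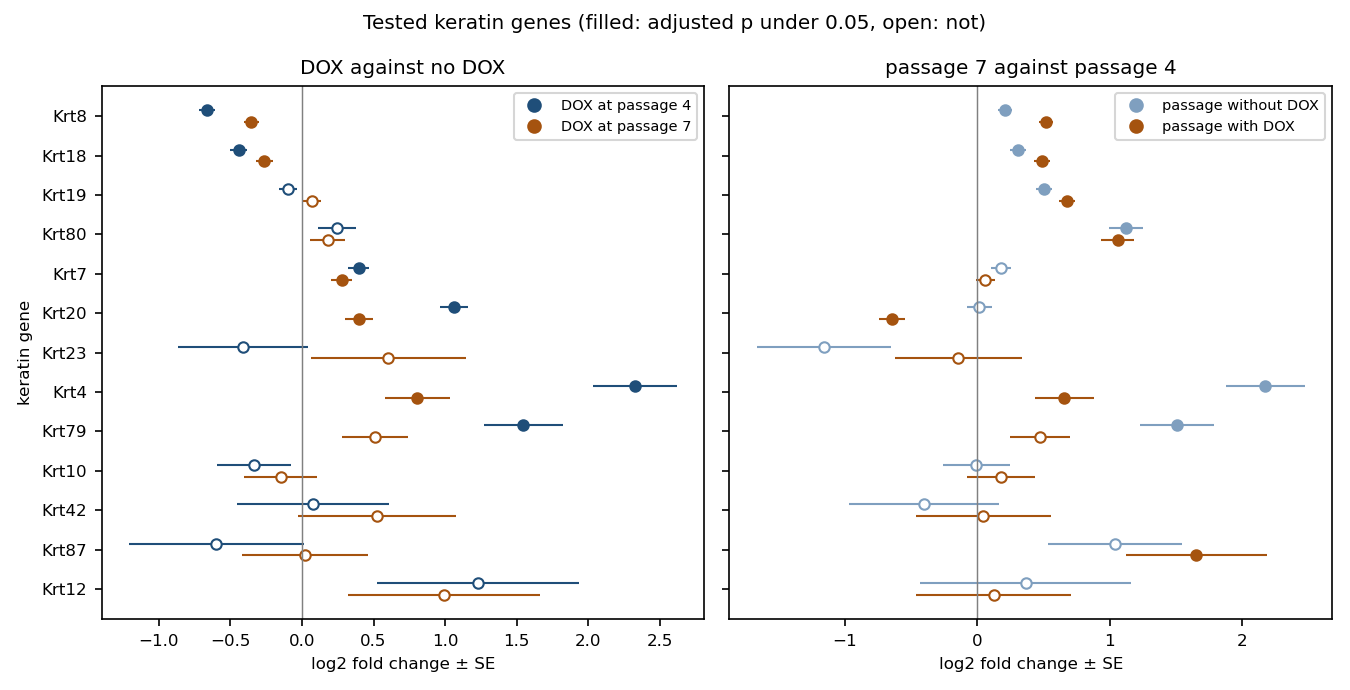
Log2 fold change with its SE (horizontal axis) of the 13 tested keratin genes (vertical axis), for DOX against no DOX at each passage on the left and for passage 7 against passage 4 on the right; filled points passed the adjusted threshold of 0.05 and open points did not. Krt8 and Krt18 lie left of 0 and Krt7, Krt20 and Krt4 right of 0 for DOX at both passages, and Krt19 and Krt80 are called for passage and not for DOX in this fit, which has no block.

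From passage 4 to passage 7, Krt8, Krt18, Krt19 and Krt80 rose, with or without DOX. Without DOX, 4 of 7 members were higher and 0 lower, against 14.3% and 11.3% of all tested genes. With DOX, the same 4 were higher and Krt20 was lower, against 18.3% and 15.8%. The members' median log2 fold change was 0.21 without and 0.49 with DOX, and that of all tested genes was -0.01 in both. No label says whether both passages were grown and sequenced together, so passage and handling cannot be told apart.

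Krt80 had the largest passage change of the 4, at 1.13 without DOX (SE 0.13, adjusted p = 5.9e-06) and 1.06 with DOX (SE 0.13, adjusted p = 4.43e-06). Its group means rose from 16.6 ± 3.13 to 36.5 ± 2.26 CPM without DOX (SD, n = 4). Krt19 rose from 709 ± 63.3 to 1007 ± 56.0 CPM without DOX, a log2 fold change of 0.51 (SE 0.06, adjusted p = 9.15e-06), and by 0.68 with DOX (SE 0.06, adjusted p = 1.82e-07). For both genes every passage 7 library was above every passage 4 library.

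The core pair rose less without DOX, Krt8 by 0.21 (SE 0.05, adjusted p = 0.00827) and Krt18 by 0.31 (SE 0.06, adjusted p = 0.000826). With DOX they rose by 0.52 (SE 0.05, adjusted p = 1.12e-06) and 0.49 (SE 0.06, adjusted p = 5.3e-06). In replicates 1 and 2 alone the value of Krt8 without DOX was 0.15, with an adjusted p of 0.0503. Krt20 did the reverse with DOX, at -0.65 (SE 0.10, adjusted p = 6.46e-05), and was 0.02 (SE 0.10, adjusted p = 0.925) without it. Krt7 was 0.18 without DOX (SE 0.07), with an adjusted p of 0.0791 and of 0.00932 with the replicate number as a block, and 0.06 with DOX (adjusted p = 0.559). Krt7 was also called without replicate 2 of passage 4 with DOX, or without replicate 1 of passage 7 without DOX (smallest adjusted p = 0.0354).

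With DOX the make-up of the keratin counts changed, while the ranges of their sum overlapped between DOX and no DOX. The 10 members together had 5742 ± 185 CPM without and 5508 ± 374 CPM with DOX at passage 4, and 6864 ± 442 and 6615 ± 227 CPM at passage 7 (SD, n = 4). Both without and with DOX the sum was thus higher at passage 7, with no overlap between passages. Krt8 and Krt18 together, and Krt7 and Krt20 together, were paired after their directions were seen. The core pair was 57.0 ± 0.589% of that sum without DOX and 40.1 ± 0.462% with DOX at passage 4, and 56.7 ± 0.932% and 47.4 ± 1.11% at passage 7. Krt7 and Krt20 together were 30.4 ± 1.64% and 47.5 ± 1.52% at passage 4 and 28.0 ± 0.808% and 36.0 ± 1.16% at passage 7. The groups did not overlap in either share at either passage. There was 0.688 ± 0.0414 Krt7 CPM for each Krt8 CPM without DOX at passage 4 and 1.43 ± 0.0719 with DOX, and at passage 7 there was 0.673 ± 0.0230 without and 1.04 ± 0.0351 with DOX. In counts Krt7 thus came level with Krt8 or passed it with DOX, whereas per base of exon Krt8 stayed above Krt7 in all 16 libraries.

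Per base of exon, the type II members summed to 0.768 ± 0.00538 of the type I members without DOX and 0.584 ± 0.00609 with DOX at passage 4. At passage 7 this ratio was 0.709 ± 0.0261 without and 0.635 ± 0.0137 with DOX (SD, n = 4). On this scale the ratio was thus lower in all DOX libraries of a passage than in those without DOX. The ratio rests on the gene lengths. With those that the deposited TPM values imply, the means were 0.822 and 0.676 at passage 4 and 0.753 and 0.701 at passage 7. The order was the same at each passage. Krt7 was 4.905 times as long as Krt18 by all exon bases and 2.849 times in the TPM values. Undivided CPM sums of type II and type I at passage 4 averaged 3275 and 2467 without and 2987 and 2521 with DOX. At passage 7 they averaged 3773 and 3091 without and 3614 and 3001 with DOX. There the CPM sum of either type overlapped between DOX and no DOX.

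**Figure D3:**
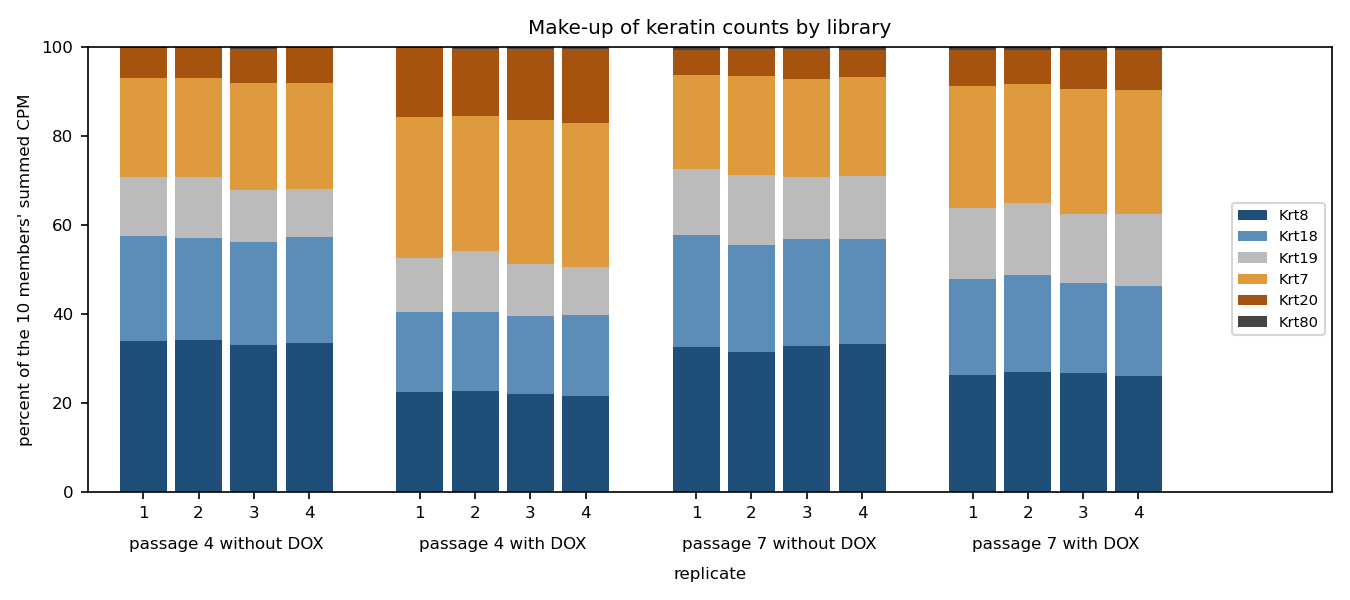
Share of each keratin gene in the 10 members' summed CPM (vertical axis, percent) for each library (horizontal axis, replicates 1 to 4 within each of the 4 groups); colours are genes, and Krt23, Krt5, Krt14 and Krt15 are too low to draw. Krt8 and Krt18 fill 57.0% on average without DOX and 40.1% with DOX at passage 4, and Krt7 and Krt20 fill 30.4% and 47.5%. At passage 7 the means are 56.7% without and 47.4% with DOX for Krt8 and Krt18, and 28.0% and 36.0% for Krt7 and Krt20.

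Krt5, Krt14 and Krt15, keratins of basal cells, were under 1 CPM in every library and are taken as not expressed at this depth. They did not pass the filter and were not tested. Krt5 had 58 counts over the 16 libraries and at most 0.883 CPM, Krt14 had 15 counts and at most 0.211 CPM, and Krt15 had 59 counts and at most 0.952 CPM. Krt14 had no count in 8 libraries and Krt5 in 2. A count of 0 allows up to 3 counts, which is 0.176 to 0.301 CPM depending on the library, and covers counting error only. Krt15 had 1, 1, 4 and 1 counts without and 1, 2, 1 and 2 with DOX at passage 4, and 3, 3, 11 and 3 without and 5, 2, 4 and 15 with DOX at passage 7. The highest counts, 11 and 15, came from single libraries of passage 7. Trp63, the master regulator of basal cells, was at most 0.529 CPM.

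Krt23, a type I keratin, passed the filter with few counts. It had 4, 7, 16 and 20 counts without and 11, 5, 8 and 11 with DOX at passage 4, and 9, 6, 3 and 1 without and 8, 7, 9 and 10 with DOX at passage 7. Only 2 libraries, replicates 3 and 4 of passage 4 without DOX, reached 1 CPM, and the groups overlapped in every comparison. None of its changes was called. For passage without DOX the log2 fold change was -1.16 (SE 0.51, adjusted p = 0.105), and without replicate 1 of passage 4 without DOX it was -1.41 (adjusted p = 0.0457).

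Of 43 other protein-coding keratin genes in the table, 6 passed the filter, 8 reached 1 CPM in some library and 13 had no count. Krt4, a type II keratin of layered epithelium, was called higher with DOX at both passages and with passage, from a low level. Krt79, another type II keratin, was called for DOX at passage 4 and for passage without DOX. Krt4 measured 0.83, 0.89, 1.33 and 0.55 CPM without and 4.50, 2.59, 6.10 and 5.55 CPM with DOX at passage 4, and 4.44, 5.22, 3.29 and 3.61 CPM without and 7.14, 5.99, 8.55 and 7.36 CPM with DOX at passage 7. The DOX libraries were above those without DOX at each passage, and the range of passage 7 without DOX lay within that of passage 4 with DOX.

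Krt4 was 5.00-fold higher with DOX at passage 4 (log2 2.32, SE 0.29, adjusted p = 1.64e-05) and 1.75-fold higher at passage 7 (log2 0.81, SE 0.23, adjusted p = 0.0144). The difference of its responses was -1.52 (SE 0.38), with an adjusted p of 0.0586 without and 0.0158 with the replicate number as a block. Its passage change was 2.18 without DOX (SE 0.30, adjusted p = 3.93e-05) and 0.66 with DOX (SE 0.22, adjusted p = 0.0284). The DOX call at passage 7 was lost without replicate 3 of passage 7 without DOX (0.70, adjusted p = 0.0517), without replicate 3 of passage 7 with DOX (0.72, adjusted p = 0.0519) and in replicates 1 and 2 alone (0.44, adjusted p = 0.213). The passage call with DOX was lost without replicate 1 or 2 of passage 4 with DOX or replicate 3 or 4 of passage 7 with DOX, with values of 0.44 to 0.65, and in replicates 3 and 4 alone (0.45, adjusted p = 0.07). The difference of responses was called without replicate 3 of passage 4 without DOX (-1.79, adjusted p = 0.0394) or replicate 2 of passage 4 with DOX (-1.74, adjusted p = 0.0104). Krt79 rose by 1.55 with DOX at passage 4 (SE 0.28, adjusted p = 0.000575). At passage 7 the change of Krt79 came to 0.51 (SE 0.23, adjusted p = 0.124). Its mean in CPM went from 0.925 ± 0.360 to 2.78 ± 0.888 at passage 4 (SD, n = 4), and its passage change was 1.51 without DOX (SE 0.28, adjusted p = 0.000698) and 0.47 with DOX (SE 0.23, adjusted p = 0.115), or 0.68 (adjusted p = 0.0295) without replicate 3 of passage 4 with DOX and 1.02 (adjusted p = 0.00813) in replicates 1 and 2 alone.

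Krt10, Krt42, Krt12 and Krt87, the other 4 that passed, reached at most 3.71, 2.57, 2.03 and 2.22 CPM. Krt10 and Krt42 had no call in any comparison. Krt12 had a mean DOX change of 1.11 (SE 0.49, adjusted p = 0.0928), and 1.10 with an adjusted p of 0.0109 with the replicate number as a block; without replicate 2 of passage 7 with DOX it was 1.27 (adjusted p = 0.0376). Krt87, which follows Krt7 on chromosome 15, was called for passage with DOX (log2 1.66, SE 0.53, adjusted p = 0.0227). That call was lost without replicate 1 or 2 of passage 4 with DOX or replicate 3 or 4 of passage 7 with DOX, with values of 1.29 to 1.56. For passage without DOX it was called with the block (1.07, adjusted p = 0.00754).

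**Figure D4:**
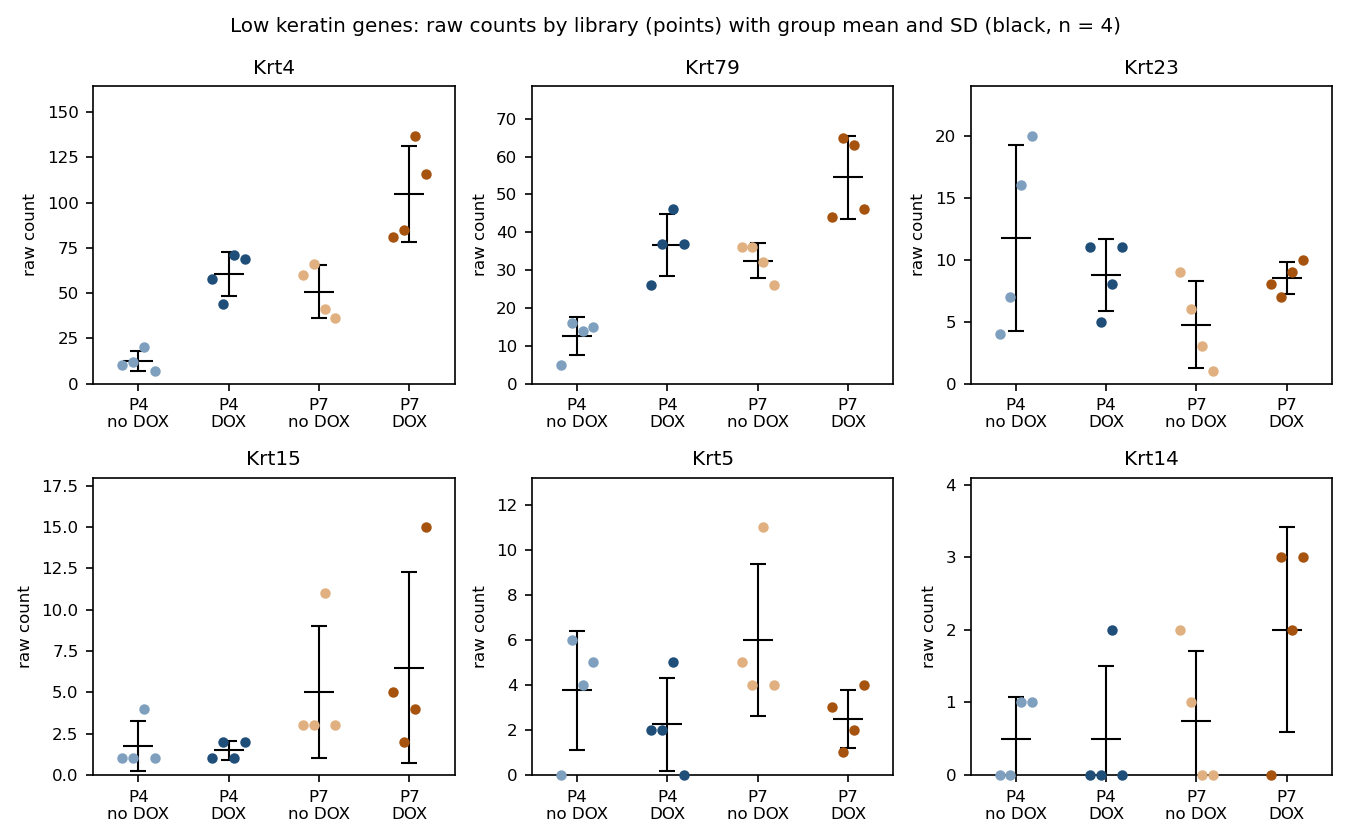
Raw counts (vertical axis) of 6 keratin genes of low level in each library, by group on the horizontal axis (P4, passage 4 and P7, passage 7); points are libraries in replicate order and black bars show the mean and SD of 4. Krt4 and Krt79 rise with DOX at passage 4, while Krt5 and Krt14 stay at no more than 11 and 3 counts in any library.

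Krt5, Krt7, Krt8, Krt18 and Krt80 share sequence or position with other genes. Krt8-ps, a processed pseudogene on chromosome 7 that is 98.6% identical to Krt8 over 941 bases, had 3642 counts, 0.966% of those of Krt8, and its DOX changes of -0.70 at passage 4 and -0.32 at passage 7 were near those of Krt8. Gm36026, a noncoding gene on the opposite strand of Krt8 with 101 shared exon bases, had 40022 counts, 10.6% of those of Krt8. It changed with DOX by -0.60 and -0.38 at the 2 passages. Gm35853, opposite Krt80 with 263 shared exon bases, had 23.2% as many counts as Krt80 and rose by 1.04 with passage without DOX. No source used here says whether the counting used strand, so reads on these shared exon bases cannot be told apart by gene. The same holds for reads on sequence that is alike in Krt8 and Krt8-ps. For Krt7, the opposite gene Gm671 had 0.297% as many counts, and for Krt18 the copy Gm5200 had 10 counts in all. For Krt5, the opposite microRNA gene Gm44323, with 129 shared exon bases, had 11 counts, 19.0% of those of Krt5.

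Over the 16 libraries the log2 CPM of Krt8 and Krt18 had a Pearson r of 0.96, Krt19 and Krt80 of 0.86, Krt7 and Krt20 of 0.75 and Krt8 and Krt20 of -0.87. These points share the 4 groups and the replicate pairs, so the values describe the same group differences once more. The 3 tested genes most like each member by this r were Gm36026 (0.97), Npnt and Lbh for Krt8, and Cdc42ep1 (0.96), Krt8 and Npnt for Krt18. They were Arhgap27 (0.96), Arl4c and Rhof for Krt7, Uap1l1 (0.96), Spint2 and Nbl1 for Krt20, Wnt7b (0.98), Ncaph2 and Fip1l1 for Krt19 and Foxred2 (0.98), Tmem54 and Tmem86a for Krt80. For Krt23, with its few counts, the highest was Gm3636 (0.79).

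Keratin filaments end at desmosomes and hemidesmosomes, through plakins and plakophilins. All 18 listed genes of this kind were tested, and with DOX averaged over passages 4 were higher and 2 lower, with a median log2 fold change of 0.06, beside 15.7% and 16.6% of all tested genes. Itga6, the hemidesmosome integrin alpha chain (0.48, adjusted p = 5.09e-09), Perp (0.47, adjusted p = 1.26e-08), Pkp1 (1.04, adjusted p = 1.86e-05) and Jup, plakoglobin (0.26, adjusted p = 5.07e-05), were higher. Pkp1 was not called at passage 4 (0.29, adjusted p = 0.465) and was at passage 7 (1.79, adjusted p = 3.53e-07). Dsg2, the desmosomal cadherin of simple epithelia (-0.55, adjusted p = 6.86e-07), and Dst, dystonin (-0.18, adjusted p = 0.0236), were lower. The plakins Dsp (0.18, adjusted p = 0.0799) and Plec (0.14, adjusted p = 0.531), which bind the filaments themselves, were not called, although Dsp was with the replicate number as a block (0.17, adjusted p = 0.0497). The block gave 6 higher and 3 lower in all, beside 3098 and 3318 of all 15316 tested genes. Also added by the block were the plakins Ppl (0.12, adjusted p = 0.0215) and Eppk1 (-0.27, adjusted p = 0.0115). The median over all tested genes was 0.00 for this comparison.

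Of 13 other intermediate filament genes, 7 were tested, and with DOX 0 were higher and 2 lower, Synm (-0.86, adjusted p = 0.00131) and Nefh (-0.67, adjusted p = 0.00536), beside 15.7% higher and 16.6% lower of all tested genes. All 11 listed proteins that bind or modify keratins were tested. With DOX, Stub1, a ubiquitin ligase, was higher (0.22, adjusted p = 0.000372), and Sfn, the 14-3-3 protein of epithelia, was lower (-0.27, adjusted p = 0.000606), as was Akt1 (-0.11, adjusted p = 0.0401), so 1 was higher and 2 lower, beside the same 15.7% and 16.6%. With the replicate number as a block, 2 were higher and 3 lower, beside 3098 and 3318 of all 15316 tested genes. The block added Tchp and Casp6.

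Of 14 listed transcription factors of epithelia, 12 were tested, with 3 higher and 2 lower with DOX and a median of 0.11, against the same 15.7% and 16.6% of all tested genes. Klf4 (0.92, adjusted p = 2.27e-07), Klf5 (0.35, adjusted p = 4.39e-05) and Grhl1 (0.48, adjusted p = 0.000745) were higher, and Ehf (-0.32, adjusted p = 1.44e-05) and Grhl3 (-0.66, adjusted p = 0.00284) were lower. With the replicate number as a block, 5 were higher and 2 lower, beside 3098 and 3318 of all 15316 tested genes. The block added Elf3 (0.14, adjusted p = 0.027) and Tfcp2l1 (0.16, adjusted p = 0.0178).

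Markers of other cell types were read beside these keratin changes. The summed level of 6 leukocyte markers was 39.0 to 46.9 CPM without and 20.1 to 35.5 CPM with DOX at passage 4, and 67.1 to 75.2 and 36.1 to 43.7 CPM at passage 7. Its 3 tested members Ptprc, Cd68 and Csf1r were lower with DOX (mean log2 fold changes -2.70, -0.85 and -0.68), beside 16.6% of all tested genes. Itgam, also listed, had no count. This list moved with DOX in the same direction as Krt8 and Krt18, and its part in their change was not tested. Of 5 urothelial markers Upk3b had 14.4 to 51.2 CPM and Upk1a 2.41 to 5.40 CPM, both without a DOX call, and Upk1b, Upk2 and Upk3a stayed under 1 CPM; Upk3b was called with the replicate number as a block (0.27, adjusted p = 0.00773).

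Of 14 markers of layered epithelium and its cornified envelope, 6 were tested. Averaged over passages, 1 was higher and 2 lower with DOX, beside 15.7% and 16.6% of all tested genes. With DOX Cdsn, corneodesmosin, was higher (2.93, adjusted p = 6.41e-09), with 10.8 to 205 CPM over the libraries, and Sprr1a (-0.81, adjusted p = 1.66e-05, 345 to 1127 CPM) and Ivl, involucrin (-1.10, adjusted p = 0.000294), were lower. The rises of Krt4 and Krt79 with DOX thus stood beside changes in both directions among these markers, whose part in it was not tested. Endothelial markers summed to at most 0.401 CPM and loop and distal tubule markers to at most 1.00 CPM. The 6 proximal tubule markers summed to 12.9 to 15.8 CPM without and 9.97 to 11.9 CPM with DOX at passage 4, and to 14.5 to 15.1 and 10.9 to 12.4 CPM at passage 7. Of the 3 tested, Slc27a2 (-2.27, adjusted p = 4.82e-06) and Cubn (-0.69, adjusted p = 0.0223) were lower with DOX, beside 16.6% of all tested genes. Slc22a6 had no count. Fibroblast and smooth muscle markers, 3 of 7 tested, summed to 10.8 to 21.3 CPM over the libraries, with no count of Col3a1. Of these Dcn was higher with DOX (1.34, adjusted p = 0.000254), beside 15.7% of all tested genes. The part of these markers in the keratin changes was not tested.

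Some of these markers also moved with passage, beside the rise of Krt8, Krt18, Krt19 and Krt80. From passage 4 to passage 7 without and with DOX, Upk3b changed by 0.98 and 0.88 (adjusted p = 0.00112 and 0.00127), Cd68 by 1.03 and 0.81, Csf1r by 0.67 and 0.58, Dcn by 2.22 and 1.85 and Tgm1 by 1.44 and 1.11, each passing the test. Ptprc changed by -1.68 and -3.66 (adjusted p = 0.00112 and 0.000188). Of the 6 tested layered epithelium markers 2 were higher and 0 lower without DOX, or 2 and 1 with the replicate number as a block. With DOX 2 were higher and 3 lower, the latter being Sbsn, Sprr1a and Dsg3. Of 3 tested fibroblast markers 2 were higher and 1 lower without DOX, and 2 and 0 with DOX. Of 7 tested principal cell markers it was 3 and 3 without and 2 and 2 with DOX, or 2 and 4 with DOX and the block. Of 7 intercalated cell markers Atp6v0d2 was the 1 tested, and it changed by -1.29 and -1.64 (adjusted p = 0.00228 and 0.000236), with list sums of 16.3 to 25.3 CPM at passage 4 and 6.43 to 11.8 CPM at passage 7 without DOX, 13.4 to 29.2 and 5.43 to 7.14 CPM with DOX, and no count of Aqp6. The summed urothelial markers were 18.5 to 24.9 CPM at passage 4 and 30.8 to 49.5 CPM at passage 7 without DOX, and 22.6 to 28.8 and 37.3 to 56.5 CPM with DOX. Of all tested genes, 14.3% were called higher and 11.3% lower with passage without DOX, and 18.3% and 15.8% with DOX. With the block, 3005 and 2660 of 15316 were called without DOX, and 3546 and 3307 with DOX. The part of these markers in the passage changes of the keratins was not tested.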

How the data were processed

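The authors made directional libraries from poly(A) RNA, sequenced 2 × 75 bp and ran STAR 2.6.0c on GRCm38.p6, per the labels' protocols, and deposited whole-number counts per gene for 16 libraries. They also deposited TPM values. The counting tool, its strand setting and the annotation are not given in the sources used here. The keratins and the gene lists were chosen with earlier results of these data known.

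Counts were kept by filterByExpr (15316 genes; 40220 left out), scaled by TMM and fitted together with 1 mean per group (12 residual degrees of freedom) by the robust quasi-likelihood fit of edgeR 4.0.16 in R 4.3.3, with Benjamini-Hochberg adjustment and a threshold of 0.05. DESeq2 1.42.0 served as an alternative. Members under 1 CPM in every library were taken as not expressed. RPKM used all exon bases of each gene in GENCODE. Copies were sought with blastn 2.17.0, at 90% identity or more over at least 300 bases. The genes named are all members, every other keratin gene that passed the filter, up to 3 genes of a list per direction by adjusted p of the mean DOX change, and the 3 genes most like each member; further list genes were picked after their values were seen. Some genes under this rule are not reported here.

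Deviations from group means of same-numbered libraries correlated by 0.161 to 0.350. Other numbers of the pairs 1 and 2 or 3 and 4 correlated by 0.175 to 0.363, and numbers across these pairs by -0.326 to -0.170. The values thus set these pairs apart and do not show pairing by number within them. The replicate number was used as a block in an alternative fit, and blocked values stand where they change a call. With the block, 2031 and 2145 genes were called higher and lower with DOX at passage 4, against 1294 and 1393. No libraries were duplicates (chi-square per degree of freedom of at least 1.87).

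Over 12205 genes, only 4 of 16 TPM columns matched the counts under the same header (next best correlation at most 0.897), and 12 matched another group's, so TPM values are used only over all columns at once. Groups follow the count headers. In counts simulated for DOX at passage 4, the test recovered 48 of 50 genes changed 1.5-fold and 7 of 50 changed 1.25-fold. The simulation gave all genes the same spread and no difference between replicate pairs, and changed only genes above a set total count. These figures therefore need not hold for the keratins.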

Additional observations from a re-analysis of the deposited data

Results flagged for a closer look

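Krt18 in replicate 3 of passage 7 without DOX, at 1795.4 CPM, stood apart from the other 3 libraries of its group. Its gap to the nearest of them was 0.854 of the group's range, past the critical share of Dixon's test for 4 samples. Of 28 groups of keratin values looked at, chance alone would give such a gap in about 1 of 20. Krt8 had its highest value of the group, 2445 CPM, in the same library.

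The response of Krt20 to DOX differed between the passages, with a difference of log2 fold changes, passage 7 minus passage 4, of -0.66 by edgeR's test of the interaction (SE 0.14, adjusted p = 0.0207). All 4 DOX libraries of each passage were above those without DOX. With each library left out in turn, the adjusted p was 0.0115 to 0.0496.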

How the results depend on the processing

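No fold change of the 7 tested members or of the 6 other tested keratins changed direction past the threshold under any alternative. The counts of called members for DOX at passage 4, at passage 7 and averaged, and for passage without and with DOX, stayed within 1.5 times of the reported ones under RLE scaling, other filters, DESeq2, the replicate block, the replicate pair term, fits of the compared groups alone, each pair of replicates alone and each library left out. For the difference of DOX responses the count of 1 became 2 without a filter, with DESeq2's Wald test, with the replicate block and with the replicate pair term, and 3 in replicates 1 and 2 alone; leaving out a library gave 1 to 2. The member added was Krt8 (adjusted p = 0.0253 without a filter, 0.00909 with DESeq2, 0.00423 with the replicate pair term), joined in replicates 1 and 2 alone by Krt18 (0.31, adjusted p = 0.0271). The cause was not tested. Krt80 was called for the mean DOX change in each pair of replicates alone, and Krt23 for passage without DOX in replicates 3 and 4 alone (-2.80, adjusted p = 0.000851). In replicates 1 and 2 alone this change of Krt23 had the opposite direction and was not called (0.42, SE 0.64, adjusted p = 0.666). Among the other keratins, the difference of DOX responses of Krt4 was also called without a filter (-1.50, adjusted p = 0.019) and with DESeq2 (-1.54, adjusted p = 0.00823), and Krt12 with DOX at passage 4 with the replicate block (1.33, adjusted p = 0.0441). Beyond the calls named, the replicate block changed none of the tested members. The filter at a mean of 1 CPM left out Krt23, and DESeq2 gave no adjusted p for 1 of 42 values of the tested members. Without a filter, Krt15 was called for passage with DOX (1.93, adjusted p = 0.0495), Krt5 and Krt14 for nothing. Of the shares of each member in the summed level per length, those of Krt7 (7.81% to 12.4%), Krt18 (33.5% to 30.8%) and Krt80 (0.157% to 0.235%) moved beyond their spread with the deposited TPM values. Depth limits what can be said of Krt5, Krt14, Krt15 and Krt23.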

Other observations

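Replicates 3 and 4 differed from replicates 1 and 2 in some keratins, over all 4 groups and apart from DOX and passage. Krt20 was higher in replicates 3 and 4 by a log2 difference of 0.23 (SE 0.04, adjusted p = 3e-05), Krt80 by 0.27 (SE 0.06, adjusted p = 0.000638) and Krt7 by 0.14 (SE 0.04, adjusted p = 0.0024), in a fit with edgeR. Krt8, Krt18, Krt19 and Krt23 were not called. Over all tested genes, 17.5% were called higher and 19.5% lower in replicates 3 and 4. No label names what the pairs share.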
